A study of Mus musculus with 9 samples.

Results

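Tumour tissue from mouse brains that had received ThTC, cells secreting interferon-beta (IFNβ) and GM-CSF, was compared with tissue that had received the control cells, GFP-TC. The comparison used 6 of the 9 libraries of the series, 3 per treatment, chosen by their treatment label, and the remaining 3 libraries (sECM only) entered the fit for their spread and as a reference level. It covered every gene with at least 1 TPM (a transcript level corrected for gene length and library total) in at least 3 of the 9 libraries, which were 13829 of 18639 gene entries. All 3 groups shared the tumour, grown from CT2A, a mouse glioblastoma line, a surgical resection, and collection on day 5 after it. The labels give neither the origin of the TC cells, nor their number, nor what GFP-TC express beyond their name, nor the age, strain or number of the animals. Nor is it stated that each library is a separate mouse, so the p-values below measure spread between libraries, which may be technical.

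IFNβ signals through the receptor chains encoded by Ifnar1 and Ifnar2, and the STAT and IRF proteins it activates bind the interferon-stimulated response element (ISRE) in the promoters of antiviral and antigen presentation genes. GM-CSF signals through Csf2ra and Csf2rb in monocytes, macrophages, dendritic cells and granulocytes. Brain tumours are known for a large content of microglia and of macrophages derived from blood monocytes, and for few T cells.

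Promoters are shown where the element through which IFNβ acts could be read directly. The search covered the 51 genes that the comparison named by p, fold change or prior choice, other than as members of a list. The ISRE core GAAA NN GAAA was sought on both strands of the 250 bases before each RefSeq start site (GRCm38.p6). Of the 51 genes, 41 had such a window. The others, with Ifi27l2a, Tyrobp and Sfrp4 among them, had none and were not searched. A match was found in 4 genes, of which Isg15 and Cxcl10 were included by prior choice. Of all 32851 RefSeq windows 2.98% held one, and a gene can have several windows. The windows of the 4 genes follow, in the direction of the gene, with the match in capitals, at chr4:156200819-156201068 (minus strand) for Isg15, chr5:92348890-92349139 (minus strand) for Cxcl10, chr13:113100982-113101231 (minus strand) for Gzma and chr15:3270517-3270766 (plus strand) for Selenop.
Isg15: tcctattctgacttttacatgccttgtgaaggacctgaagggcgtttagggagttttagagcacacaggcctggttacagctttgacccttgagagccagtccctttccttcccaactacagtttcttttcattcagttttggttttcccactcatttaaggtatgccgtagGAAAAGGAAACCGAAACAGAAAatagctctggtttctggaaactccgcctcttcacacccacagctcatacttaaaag
Cxcl10: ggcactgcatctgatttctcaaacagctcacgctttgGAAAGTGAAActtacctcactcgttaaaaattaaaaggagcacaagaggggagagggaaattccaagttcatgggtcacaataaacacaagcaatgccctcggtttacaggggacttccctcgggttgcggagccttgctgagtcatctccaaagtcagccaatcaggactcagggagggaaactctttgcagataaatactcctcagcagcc
Gzma: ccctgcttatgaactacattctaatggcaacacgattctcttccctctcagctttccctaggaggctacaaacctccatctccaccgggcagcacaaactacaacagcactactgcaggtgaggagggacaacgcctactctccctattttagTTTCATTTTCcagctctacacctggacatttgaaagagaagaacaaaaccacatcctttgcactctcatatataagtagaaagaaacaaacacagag
Selenop: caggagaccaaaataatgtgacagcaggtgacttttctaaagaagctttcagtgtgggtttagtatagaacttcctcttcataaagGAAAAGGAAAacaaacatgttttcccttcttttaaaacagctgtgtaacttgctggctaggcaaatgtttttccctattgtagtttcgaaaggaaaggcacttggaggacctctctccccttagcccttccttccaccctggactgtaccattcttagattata
In Isg15, which encodes a ubiquitin-like protein of the antiviral response, 3 matches overlapped, their first bases 78, 72 and 66 bases before the start. The single match began 213 bases before the start of Cxcl10, a chemokine gene, and 164 bases before that of Selenop, which encodes a secreted selenium carrier. In Gzma, a granule protease gene of killer lymphocytes, it lay on the opposite strand, 97 bases before the start. A match describes the letters of the window and shows no binding.

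The values of each library sum to a fixed total, and of read depth only the sequencing target of 4.47 Gb in the labels is known. Between 12746 and 14100 genes reached 1 TPM in a library of the 2 groups. The glioma markers Nes, Cd44, Vim and Sox2 together were at 3591 to 5278 TPM in these 6 libraries, while the skin keratin genes Krt1, Krt5 and Krt10 summed to at most 1.91 TPM. Markers of brain tissue differed widely between libraries: the 10 neuron markers summed to 89.3, 354 and 1212 TPM with GFP-TC and 133, 280.1 and 1451 TPM with ThTC in the order of the library numbers 1, 2 and 3, the order used throughout. The libraries numbered 3 were the highest in both groups and those numbered 1 the lowest. The 8 oligodendrocyte markers followed the same order, at 178, 547 and 1997 TPM with GFP-TC and 159, 645 and 2416 TPM with ThTC. The 4 T cell markers Cd3d, Cd3e, Cd3g and Cd2 were at 3.56, 38.5 and 46.8 TPM with GFP-TC and 59.7, 54.6 and 60.5 TPM with ThTC, with no overlap, and the lowest value, in GFP-TC 1, was far below the rest. The macrophage markers Adgre1, Cd68, Csf1r and Lyz2 were at 541, 972 and 1055 TPM with GFP-TC and 1066, 2075 and 1499 TPM with ThTC, again without overlap and lowest in GFP-TC 1. Red blood cell markers were at 1005, 1219.9 and 221 TPM with GFP-TC and 153, 534 and 383 TPM with ThTC. Of the 36 gene lists described below, GFP-TC 1 had the lowest summed TPM of the 6 libraries in 22. Its part in the results was not tested, and list medians are therefore given with and without it.

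The mouse transcripts of the secreted factors were near 0 in both groups. Ifnb1 was at 0.30, 0.17 and 0.17 TPM with GFP-TC and 0.15, 0.14 and 0.16 TPM with ThTC, with every ThTC value under the lowest GFP-TC value (difference -0.063 TPM, exact two-sided permutation p = 0.1, the smallest that 3 against 3 allows). This separation depended on the scaling. After median-of-ratios scaling the difference was -0.051 TPM (exact two-sided permutation p = 0.9). Csf2 was at 0.14, 0 and 0 TPM with GFP-TC and 0.13, 0.13 and 0.34 TPM with ThTC, and the groups overlapped (difference 0.15 TPM, exact two-sided permutation p = 0.3). Both genes lay below the filter, and the labels do not name the coding sequence carried by the cells, so the files do not show whether it would be counted under these symbols. The receptor genes were well expressed. Ifnar1 was at 40.6, 51.9 and 50.6 TPM with GFP-TC and 43.1, 45.1 and 44.1 TPM with ThTC, and Ifnar2 at 86.2, 105 and 106 TPM with GFP-TC and 93.5, 116 and 104 TPM with ThTC. Csf2ra was at 19.96, 61.01 and 51.97 TPM with GFP-TC and 40.2, 55.5 and 54.9 TPM with ThTC, and Csf2rb at 6.96, 22.3 and 28.7 TPM with GFP-TC and 18.3, 22.1 and 28.7 TPM with ThTC. All 4 overlapped between the groups, and both GM-CSF receptor genes were lowest in GFP-TC 1. The log2 fold changes, ThTC minus GFP-TC on log2(TPM + 1), were -0.10 for Ifnar1 (0.03 after median-of-ratios scaling), 0.079 for Ifnar2 (-0.016 without GFP-TC 1), 0.31 for Csf2ra (-0.18 without GFP-TC 1) and 0.42 for Csf2rb (-0.15 without GFP-TC 1), with adjusted p from 0.667 to 0.774 in limma.

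Of the 19 genes of interferon receptors and JAK-STAT signalling, 13 had higher means with ThTC (33.8% of all tested genes did). None had an unadjusted p under 0.05 in limma, against 2.03% higher and 12.9% lower of all genes. Their median log2 fold change was 0.16, against -0.10 for all genes. Without GFP-TC 1 it was -0.098, against -0.21 for all genes. Median-of-ratios scaling centres the libraries on their typical gene. After it the median of the list was 0.30 with all 19 higher, against 53.7% of all genes. Irf7, a factor that amplifies type I interferon responses, was at 265, 396 and 433 TPM with GFP-TC and 414, 463 and 470.2 TPM with ThTC. The groups overlapped, since GFP-TC 1 was low while GFP-TC 3 reached the range of ThTC. The Irf7 locus overlaps Phrf1 on the opposite strand, and whether counting used strand is not given in the sources used here. Overlaps with other genes are given below for some genes only.

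Across all genes, limma called none at an adjusted p of 0.05 (0.0%), and the smallest adjusted p was 0.316. An unadjusted p under 0.05 was reached by 281 genes with higher means with ThTC (2.03% of those tested) and by 1784 with lower means (12.9%). The 3 ThTC libraries lay above the 3 GFP-TC libraries for 304 genes (2.2%) and below them for 2333 (16.9%). Means were higher for 33.8% of genes and lower for 66.2%, and the median log2 fold change of all genes was -0.10. This imbalance depended on the scaling of TPM: with median-of-ratios factors the median moved by 0.125 to 0.021, the counts at an unadjusted p under 0.05 became 794 higher (5.74%) and 542 lower (3.92%), and lower genes made up 40.6% instead of 86.4% of them. Means were then higher for 53.7% of genes and lower for 46.3%. All 281 higher genes stayed under 0.05 after that scaling, as did 542 of the 1784 lower ones. The scaling raised nearly all log2 fold changes, which favours the higher genes, so this is no check on them. Lower genes made up 88.5% of the non-overlapping genes as deposited and 51.0% after scaling. The libraries left out one at a time moved the higher count to 472 without GFP-TC 1, 175 without GFP-TC 2, 541 without GFP-TC 3, 103 without ThTC 2 and 161 without ThTC 3, and the lower count to 595 without GFP-TC 2 and 676 without ThTC 2.

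**Figure D1:**
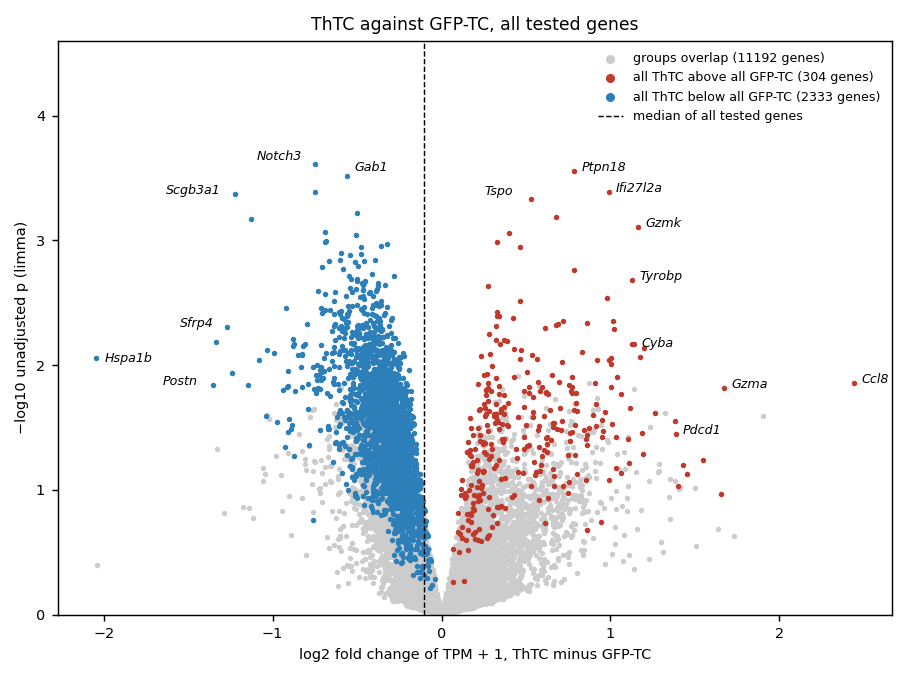
Each point is 1 of the 13829 tested genes, with its log2 fold change of TPM + 1 (ThTC minus GFP-TC) on the horizontal axis and −log10 of its unadjusted limma p on the vertical axis; red and blue points are the 304 and 2333 genes whose groups do not overlap. The cloud is centred left of 0, at a median of -0.10, and the widest changes, such as Ccl8 and Hspa1b, are not those with the smallest p.

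Deviations from the group means correlated at 0.743 and 0.874 between the groups for the libraries numbered 1 and 3. For those numbered 2 the correlation was 0.124, below the 0.382 of GFP-TC 1 with ThTC 2. The labels do not say what a number stands for, so the pairing is an assumption drawn from these same data. When the 6 libraries were fitted with their number as a block, limma called 8 genes (0.0578%), where none was called without it. Gzmf, Trem2, Cyba, Tyrobp, Ifi27l2a and Selenop rose with ThTC, and Postn and Sfrp4 fell. With both the block and median-of-ratios scaling 0 genes were called, and all 8 had an adjusted p of 0.0979. Without pair 2 the blocked fit called 0 genes, without pair 1 it called 1681 and without pair 3 it called 286, each with a single residual degree of freedom.

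Of the 6 that rose, 3 belong to the phagocyte machinery. Tyrobp (chr7:30413782-30417582), the signalling adaptor of Trem2 and other receptors of myeloid and NK cells, was at 167, 244 and 327 TPM with GFP-TC and 399, 622 and 562 TPM with ThTC. The groups did not overlap, and the log2 fold change was 1.13 ± 0.26 (SE), 2.15-fold on the means. Trem2 (chr17:48346401-48352276), a lipid-sensing receptor of macrophages and microglia, was at 25.3, 47.4 and 72.2 TPM with GFP-TC and 69.4, 108 and 128 TPM with ThTC, with ThTC 1 just below GFP-TC 3, and a log2 fold change of 1.14 ± 0.38. Cyba (chr8:122424771-122432940), the membrane subunit of the phagocyte NADPH oxidase, was at 84.7, 148 and 199.8 TPM with GFP-TC and 221, 389 and 315 TPM with ThTC, without overlap, and a log2 fold change of 1.14 ± 0.32. In each of these 3 genes GFP-TC 1 was the lowest library. Without it the log2 fold changes were 0.876 for Tyrobp, 0.747 for Trem2 and 0.801 for Cyba. The Cyba locus overlaps Gm20388 on the opposite strand over 8155 bases. With the block limma gave an adjusted p of 0.022 for Tyrobp, 0.022 for Trem2 and 0.0422 for Cyba, against 0.316 each without it. The sECM only libraries, at 341, 262 and 249 TPM for Tyrobp and 213, 154 and 152 TPM for Cyba, were below every ThTC library.

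Ifi27l2a (chr12:103433873-103443680), an interferon-inducible gene of the ISG12 family, was at 147, 122 and 142 TPM with GFP-TC and 247, 285 and 286 TPM with ThTC. The GFP-TC values lay close together and every ThTC value was well above them (log2 fold change 0.99 ± 0.18, 1.04 without GFP-TC 1; limma adjusted p = 0.022 with the block). sECM only values were 192, 114 and 139 TPM. Gzmf (chr14:56205263-56211407), a granzyme of activated killer lymphocytes, was at 13.9, 58.5 and 36.3 TPM with GFP-TC and 41.4, 198 and 88.1 TPM with ThTC, a rise within every same-numbered pair with wide overlap between the groups. Its log2 fold change was 1.501 ± 0.80 (limma adjusted p = 0.00479 with the block and 0.39 without), and its near-identical neighbours Gzmd, Gzme and Gzmg could share its reads. The sECM only values of Gzmf, 172, 26.8 and 93.8 TPM, reached into the ranges of both groups. Selenop (chr15:3270767-3280510), whose promoter is printed above, was at 52.8, 65.4 and 148 TPM with GFP-TC and 98.3, 140.3 and 267 TPM with ThTC, also with overlap (log2 fold change 0.94 ± 0.44; limma adjusted p = 0.022 with the block and 0.348 without). The sECM only values of Selenop were 121, 104 and 87.1 TPM, and Ccdc152 overlaps its end on the opposite strand. Gm4022 overlaps Gzmf on the opposite strand over 2473 bases. Without GFP-TC 1 the log2 fold changes were 0.948 for Gzmf and 0.644 for Selenop.

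The 2 genes that fell encode secreted proteins of stroma. Postn (chr3:54359267-54391041) encodes periostin, a matrix protein of activated fibroblasts and tumour stroma, and was at 129, 155 and 64.98 TPM with GFP-TC and 51.97, 64.2 and 22.4 TPM with ThTC. Sfrp4 (chr13:19623175-19632825) encodes a secreted protein that binds Wnt ligands, and was at 63.98, 56.5 and 31.4 TPM with GFP-TC and 22.4, 25.6 and 12.8 TPM with ThTC. Neither gene overlapped between groups, although for Postn the highest ThTC value and the lowest GFP-TC value nearly met. The log2 fold changes were -1.35 ± 0.44 and -1.27 ± 0.34, a level 2.52-fold and 2.5-fold higher with GFP-TC on the means, and limma gave adjusted p = 0.00479 and 0.0191 with the block. Leaving out GFP-TC 1 gave -1.231 for Postn and -1.076 for Sfrp4. sECM only libraries were at 78.7, 141 and 97.5 TPM for Postn and 42.6, 73.9 and 51.3 TPM for Sfrp4. For Sfrp4 and Postn each of these values lay above every ThTC library.

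**Figure D2:**
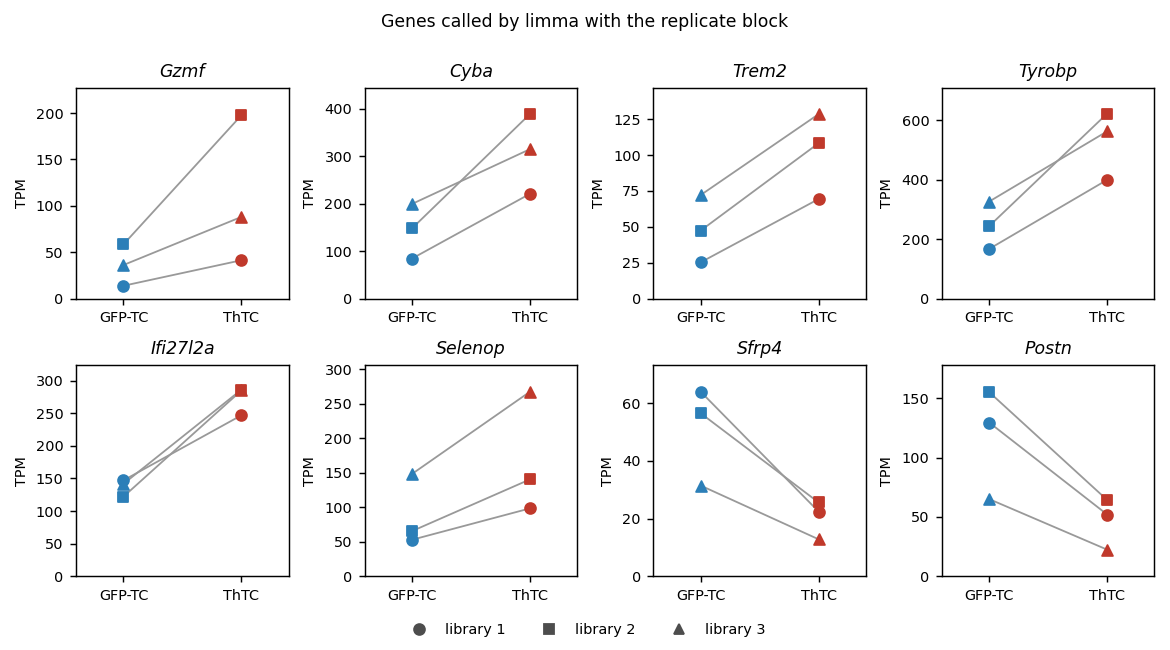
TPM of the 8 genes called by limma with the replicate block, 1 panel per gene with its own axis from 0; blue symbols are GFP-TC libraries, red symbols ThTC libraries, and grey lines join libraries of the same number. Every line runs in the gene's direction, and the groups overlap in Gzmf, Trem2 and Selenop.

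Over all tested genes, 29 were at least 2-fold higher and 14 at least 2-fold lower with ThTC at an unadjusted p under 0.05, on log2(TPM + 1), and 23 and 11 of them had no overlap. Tyrobp, Trem2, Cyba, Postn and Sfrp4 are among these. The largest higher difference was that of Ccl8, a chemokine gene for monocytes and lymphocytes, at 1.20, 8.90 and 16.7 TPM with GFP-TC and 25.01, 54.8 and 41.6 TPM with ThTC. GFP-TC 1 was almost without it, and the log2 fold change went from 2.44 ± 0.79 to 1.58 without that library; sECM only values of 40.95, 10.9 and 45.4 TPM spanned both groups. Apoc2, which encodes the cofactor of lipoprotein lipase, was at 12.3, 12.9 and 20.3 TPM with GFP-TC and 25.9, 60.5 and 27.9 TPM with ThTC. Its locus overlaps Gm44805 on the same strand over 6358 bases. Hpse, which encodes heparanase, an enzyme that cuts heparan sulphate in the matrix, was at 2.43, 6.99 and 8.55 TPM with GFP-TC and 9.25, 14.3 and 15.9 TPM with ThTC, and the secreted whey acidic protein gene Wfdc17 at 8.27, 12.9 and 19.5 TPM with GFP-TC and 21.8, 38.9 and 32.1 TPM with ThTC. In none of these 4 genes did the groups overlap, and limma gave each an adjusted p of 0.316.

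Some of the non-overlapping genes with the smallest p changed little but evenly. Tspo, the outer mitochondrial membrane protein used as an imaging marker of activated microglia and macrophages, was at 249.9, 220.02 and 251 TPM with GFP-TC and 332, 373 and 336 TPM with ThTC. Ptpn18, a cytosolic tyrosine phosphatase gene, was at 21.4, 22.96 and 26.6 TPM with GFP-TC and 37.7, 42.96 and 43.6 TPM with ThTC, and Arl11, which encodes a small GTPase of the ARF family, at 7.85, 9.31 and 10.8 TPM with GFP-TC and 13.6, 19.1 and 17.8 TPM with ThTC. The spread within each group was small beside these differences (log2 fold changes 0.53 ± 0.10, 0.78 ± 0.13 and 0.79 ± 0.17). Tspo overlaps Mcat on the opposite strand. Ms4a6b, of a membrane protein family of macrophages, was at 19.5, 27.03 and 29.8 TPM with GFP-TC and 40.97, 63.9 and 49.01 TPM with ThTC. Insl6, an insulin-like peptide gene, had a mean of 145 ± 19.04 against 89.8 ± 5.69 TPM with ThTC against GFP-TC (SD, n = 3). Ostf1, Mrps16 and Nubp2, which encode an SH3 adaptor, a mitochondrial ribosome subunit and an iron-sulphur assembly factor, had means 1.26-fold, 1.39-fold and 1.21-fold those of GFP-TC, with standard deviations of at most 4.05 TPM in either group. limma gave an adjusted p of 0.316 for each gene of this paragraph.

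Among lower genes, Hspa1b, an inducible HSP70 chaperone gene, had the largest difference, at 109, 106 and 18.6 TPM with GFP-TC and 12.4, 15.4 and 13.8 TPM with ThTC. It was high in 2 GFP-TC libraries only, while GFP-TC 3 was close to ThTC; the near-identical Hspa1a could share its reads. Notch3, a Notch receptor of pericytes and smooth muscle, was at 8.46, 9.62 and 9.83 TPM with GFP-TC and 5.05, 5.07 and 5.22 TPM with ThTC. Its sECM only values were 9.46, 10.1 and 9.40 TPM, and its locus overlaps Gm17276 on the opposite strand over 21024 bases. Pdgfrb, the PDGF-B receptor of pericytes and fibroblasts, was at 48.2, 63.5 and 57.2 TPM with GFP-TC and 34.6, 31.9 and 32.02 TPM with ThTC. In both the ThTC values agreed closely and lay well below GFP-TC, with log2 fold changes of -0.75 ± 0.12 and -0.75 ± 0.13. Gab1, an adaptor of receptor tyrosine kinases, was at 28.8, 33.2 and 29.8 TPM with GFP-TC and 20.3, 19.1 and 22.03 TPM with ThTC. The junction protein gene Jup was at 67.2, 77.9 and 65.1 TPM with GFP-TC and 35.9, 43.2 and 51.7 TPM with ThTC, and the receptor phosphatase gene Ptprf at 26.9, 30.02 and 26.96 TPM with GFP-TC and 18.5, 18.8 and 20.98 TPM with ThTC. Foxl2, a forkhead factor gene that Foxl2os borders on the opposite strand, was at 28.8, 31.03 and 22.7 TPM with GFP-TC and 17.6, 15.9 and 16.04 TPM with ThTC. Scgb3a1, a secretoglobin gene, was low throughout, at 10.6, 6.39 and 6.89 TPM with GFP-TC and 2.12, 2.96 and 3.30 TPM with ThTC. Repin1, Zc3hav1l and Pam had smaller differences (-0.50, -0.69 and -0.32 on the log2 scale), and Spaca6 and Atg9b, which overlaps Nos3, larger ones (-1.34 and -1.24) that were widest in pair 2. The limma adjusted p of all these lower genes was 0.316.

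**Figure D3:**
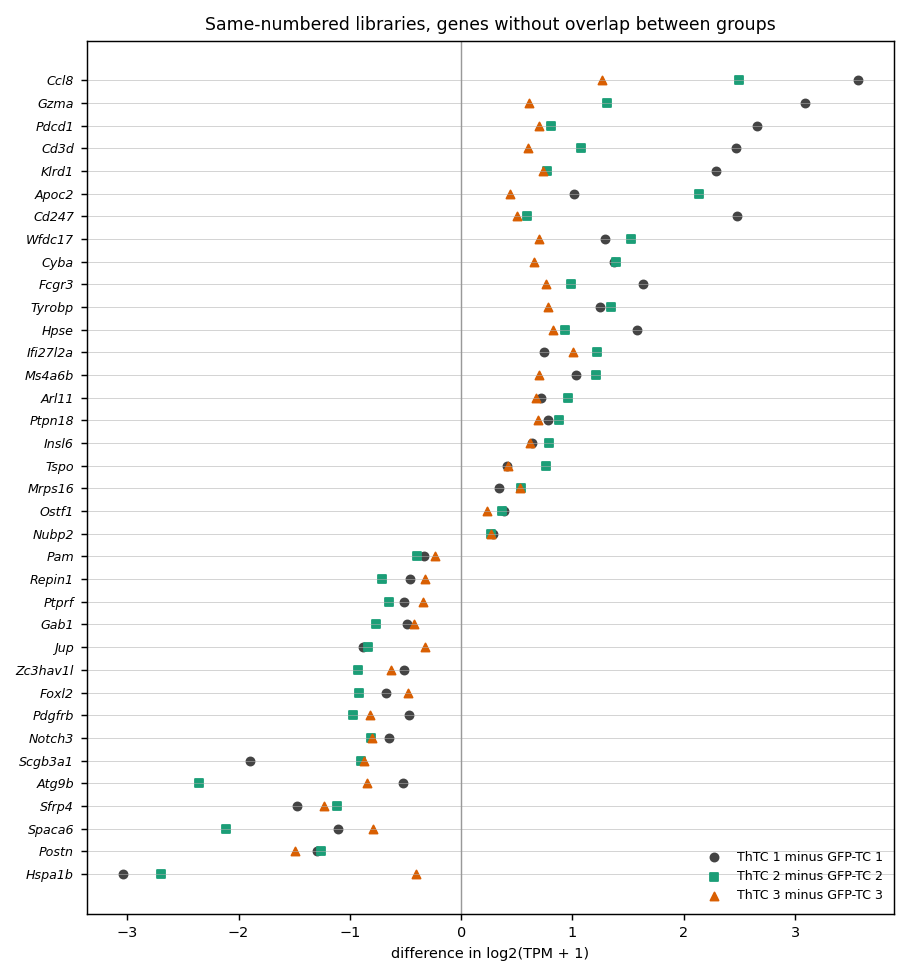
Differences in log2(TPM + 1) between same-numbered ThTC and GFP-TC libraries, with 1 symbol per pair, for the genes without overlap that had the smallest p or the largest fold change. Pair 1 is far out for the lymphocyte genes Gzma, Pdcd1, Cd3d, Klrd1 and Cd247, where it exceeds 2, while Ifi27l2a, Ptpn18, Notch3 and Gab1 differ by similar amounts in all pairs.

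The lists that follow are described by counts and medians, since no member was called in limma without the block. They are to be read against all tested genes, of which 33.8% had higher and 66.2% lower means, 2.2% lay above and 16.9% below GFP-TC without overlap, and 2.03% and 12.9% were higher and lower at an unadjusted p under 0.05, with a median of -0.10. A difference between tissues in such genes cannot tell fewer cells of a type from less RNA per cell. In 3 of 3 same-numbered pairs, 32.6% of all genes were lower with ThTC. List values without GFP-TC 1 are to be read against all tested genes in that setting. Their median was then -0.21, and 3296 of 13829 had higher means. Leaving out GFP-TC 1 changed the sign of the median of 9 of the 36 lists, leaving out ThTC 3 that of 3, ThTC 2 that of 2, GFP-TC 2 or GFP-TC 3 that of 1 each and ThTC 1 that of 0.

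Interferon-stimulated genes were higher on average by a small amount. Of 60 listed type I interferon-stimulated genes 57 were tested, 52 had higher means (33.8% of all genes did), 9 had no overlap (2.2%) and 6 had an unadjusted p under 0.05 (2.03%), all of them higher. The median log2 fold change was 0.30, with 0.62, 0.17 and 0.17 in pairs 1, 2 and 3, and 0.083 without GFP-TC 1, when 34 of 57 were higher. The summed TPM of the list was 8456, 10636 and 11976 TPM with GFP-TC and 11867, 13367 and 13299 TPM with ThTC, so ThTC 1 lay below GFP-TC 3 and the groups overlapped. Next to Ifi27l2a, the smallest p was that of Ms4a4c, a monocyte membrane protein gene, at 21.2, 31.1 and 36.6 TPM with GFP-TC and 42.97, 50.4 and 51.6 TPM with ThTC. Isg15, with 3 ISRE matches in its promoter, was at 328, 306 and 337 TPM with GFP-TC and 354, 408 and 417 TPM with ThTC, without overlap but a log2 fold change of only 0.28 ± 0.17. Classical members were not all of one sign: Rsad2, which encodes viperin, was at 34.6, 46.1 and 50.9 TPM with GFP-TC and 37.1, 35.02 and 51.9 TPM with ThTC, and Ifit2, which encodes an RNA-binding antiviral protein, at 51.8, 80.7 and 78.5 TPM with GFP-TC and 56.7, 62.6 and 82.8 TPM with ThTC. Their log2 fold changes of -0.088 and -0.052 turned to 0.045 and 0.082 after median-of-ratios scaling. Cxcl10 was at 269, 472 and 509 TPM with GFP-TC and 318, 429 and 593 TPM with ThTC, wholly overlapping, and its log2 fold change of 0.11 became -0.18 without GFP-TC 1.

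All 25 tested genes of the list of guanylate-binding proteins (GBP), immunity-related GTPases (IRG) and other interferon-gamma-inducible genes had higher means, but every one overlapped between the groups and 1 had an unadjusted p under 0.05 (2.03% of all genes were higher at that p). Their median was 0.65, with 1.28, 0.25 and 0.25 in the 3 pairs. Leaving out GFP-TC 1 made it -0.027, and 11 of 25 were higher. Gbp2b was at 0.18, 1.35 and 2.12 TPM with GFP-TC and 1.69, 5.70 and 6.47 TPM with ThTC and Cxcl9, a chemokine gene that draws T cells, at 13.4, 51.2 and 92.8 TPM with GFP-TC and 65.2, 107 and 140.2 TPM with ThTC. In both genes ThTC was higher within each pair, while GFP-TC 3 exceeded ThTC 1.

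Antigen presentation genes through MHC class II, which myeloid cells use to show peptides to CD4 T cells, differed more widely. All 12 tested members had higher means (33.8% of all genes), 4 without overlap (2.2%), with a median of 0.86 and pair medians of 1.84, 0.56 and 0.46. Without GFP-TC 1 the median was 0.40 and 10 of 12 were higher. The summed TPM, 829, 3086 and 4607 TPM with GFP-TC and 4822, 4956 and 6432 TPM with ThTC, did not overlap between the groups; it was the only list of the 36 in which all ThTC sums lay above all GFP-TC sums. GFP-TC ran over a wide range and GFP-TC 3 came close to ThTC 1. Ifi30, a lysosomal thiol reductase gene that unfolds antigens, was at 84.6, 212 and 215 TPM with GFP-TC and 244, 295 and 264 TPM with ThTC, and H2-DMb1, a chaperone gene of peptide loading, at 40.4, 73.4 and 100.03 TPM with GFP-TC and 98.7, 105 and 139 TPM with ThTC, where GFP-TC 3 overlapped ThTC 1. In the MHC class I list 18 of 23 had higher means and 5 were without overlap, against 33.8% and 2.2% of all genes (median 0.25, and 0.028 without GFP-TC 1). Its leading members were Psmb9, an immunoproteasome subunit gene, at 183, 253 and 256 TPM with GFP-TC and 324, 431 and 380.2 TPM with ThTC, and Psme2, a proteasome activator gene, at 158, 243 and 249 TPM with GFP-TC and 297, 385 and 344 TPM with ThTC. Neither overlapped between groups. Psmb9 overlaps Tap1 on the opposite strand.

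**Figure D4:**
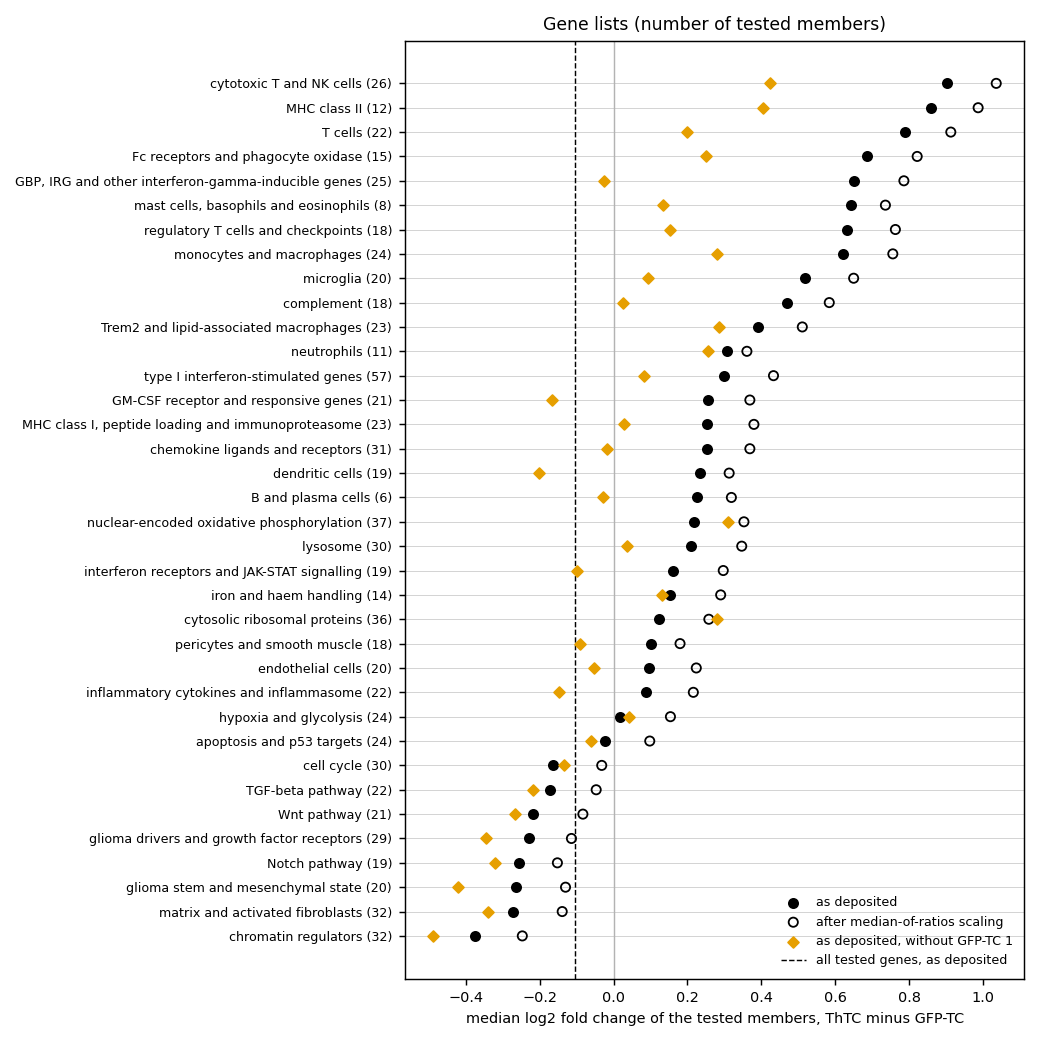
Median log2 fold change (ThTC minus GFP-TC) of the tested members of each of the 36 gene lists, as deposited (filled circles), after median-of-ratios scaling (open circles) and without GFP-TC 1 (diamonds), with the median of all tested genes, -0.10, as a dashed line. Lymphocyte, MHC class II and phagocyte lists are at the top and chromatin, matrix and glioma lists at the bottom. Leaving out GFP-TC 1 moves the immune lists left. It also moves the median of all tested genes left, to -0.21, which is not drawn. The open circles all lie to the right of the filled ones.

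T cell genes were higher in means, most of all in pair 1. Of 25 listed genes 22 were tested, 21 had higher means, 6 did not overlap and 3 had an unadjusted p under 0.05, against 33.8%, 2.2% and 2.03% of all genes. The median of 0.79 came from pair medians of 1.98, 0.25 and 0.20, and was 0.20 without GFP-TC 1. Cd3d, which encodes a CD3 chain of the T cell receptor, was at 0.65, 3.48 and 4.38 TPM with GFP-TC and 8.14, 8.44 and 7.16 TPM with ThTC. The ThTC values agreed closely, while GFP-TC 1 was almost without it. Cd247, the signalling chain of that complex, was at 0.51, 4.48 and 5.34 TPM with GFP-TC and 7.39, 7.25 and 7.97 TPM with ThTC and overlaps Pou2f1 on the opposite strand, and the costimulator gene Icos was at 0.32, 2.47 and 2.93 TPM with GFP-TC and 4.66, 3.63 and 4.63 TPM with ThTC. Cd8a, the co-receptor of cytotoxic T cells, was at 0.71, 10.9 and 14.3 TPM with GFP-TC and 12.6, 12.3 and 15.2 TPM with ThTC, and overlapped. Its log2 fold change of 1.08 was 0.084 without GFP-TC 1.

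Cytotoxic genes had the highest median of all lists, 0.90, with 25 of 26 members higher, 7 without overlap and 5 with an unadjusted p under 0.05 (33.8%, 2.2% and 2.03% of all genes). The pair medians were 1.33, 0.71 and 0.42, and the median without GFP-TC 1 was 0.42 with 23 of 26 higher. Gzma was at 5.04, 26.9 and 25.5 TPM with GFP-TC and 50.4, 68.2 and 39.5 TPM with ThTC, and Klrd1, an NK receptor chain also carried by activated CD8 T cells, at 1.78, 8.10 and 5.86 TPM with GFP-TC and 12.6, 14.5 and 10.4 TPM with ThTC. Gzmk was low, at 0.14, 0.49 and 0.66 TPM with GFP-TC and 2.12, 2.61 and 1.83 TPM with ThTC, and shares its locus with Esm1 on the opposite strand. None of the 3 overlapped, but Gzmk passed the filter only through the ThTC libraries, where it is high, so its place among the 7 without overlap supports nothing. Gzma and Gzmf were highest in ThTC 2, which had the lowest T cell marker sum of the ThTC libraries. Of 18 regulatory T cell and checkpoint genes 16 had higher means and 1 had no overlap (33.8% and 2.2% of all genes), with a median of 0.63 (0.15 without GFP-TC 1). That one was Pdcd1, which encodes PD-1, at 0.94, 3.99 and 6.85 TPM with GFP-TC and 11.2, 7.71 and 11.8 TPM with ThTC. limma gave Pdcd1 an adjusted p of 0.32, and 0.158 with the block.

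Monocyte and macrophage genes had 24 of 24 tested members with higher means, 9 of them without overlap and 10 at an unadjusted p under 0.05, against 33.8%, 2.2% and 2.03% of all genes. Their median was 0.62, with 1.005, 0.69 and 0.30 in the pairs and 0.28 without GFP-TC 1 (19 of 24 higher). Lyz1, a lysozyme gene nearly identical to Lyz2, was at 31.1, 33.7 and 41.01 TPM with GFP-TC and 48.6, 106 and 59.04 TPM with ThTC, and it, like Ms4a6b, was highest in ThTC 2. Among 15 genes of Fc receptors and the phagocyte oxidase, all had higher means (33.8% of all genes did), 6 had no overlap (2.2%), and the median was 0.69 and was 1.25, 0.41 and 0.32 in the 3 pairs (0.25 without GFP-TC 1, still with all 15 higher). Fcgr3, a receptor for the constant part of IgG, was at 48.9, 113 and 124 TPM with GFP-TC and 154, 224 and 212 TPM with ThTC. The sECM only values of 123, 116 and 123 TPM lay inside the GFP-TC range.

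Of 23 genes of the Trem2 and lipid-associated macrophage list 20 had higher means, 3 did not overlap and 7 had an unadjusted p under 0.05 (33.8%, 2.2% and 2.03% of all genes). The pair medians of 0.54, 0.46 and 0.36 were close to each other, around a median of 0.39 that was 0.29 without GFP-TC 1 and 0.77 without ThTC 1. The microglia list (16 of 20 higher, median 0.52, from 0.093 without GFP-TC 1 to 0.94 without GFP-TC 3) was led by Tyrobp and Trem2, which it shares with the former list, and by C1q genes. The 4 markers kept for microglia themselves, P2ry12, Tmem119, Sall1 and Siglech, summed to 72.4, 95.4 and 132 TPM with GFP-TC and 80.5, 106 and 164 TPM with ThTC, with overlap. All 18 tested complement genes had higher means, 1 of them (Cfp, the properdin gene) without overlap (2.2% of all genes), with a median of 0.47 (0.025 without GFP-TC 1). C1qa and C1qb, which encode chains of the first complement component and come mainly from macrophages and microglia, were at 386, 708 and 1053 TPM with GFP-TC and 996, 1291 and 1549 TPM with ThTC, and at 407, 665 and 1046 TPM with GFP-TC and 972, 1324 and 1490.4 TPM with ThTC. In both groups they were lowest in the library numbered 1 and highest in that numbered 3, the order of the neuron markers. With a covariate of neuron and oligodendrocyte markers in the fit, the complement median was 0.445 with all 18 higher. The microglia median was then 0.473, and that of all tested genes -0.115. The part of brain tissue in the levels of C1qa and C1qb was not tested.

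Genes of the GM-CSF receptor and of the response to it were mixed: 14 of 21 had higher means, and 2 had an unadjusted p under 0.05 (33.8% and 2.03% of all genes). Alox15, a lipoxygenase gene, was under 1 TPM in all 6 libraries, at 0.35, 0.54 and 0.40 TPM with GFP-TC and 0.22, 0.21 and 0.21 TPM with ThTC, and passed the filter only through the sECM only libraries, at 3.79, 1.65 and 2.41 TPM. Ccl24 and Retnla likewise passed the filter only with the sECM only libraries counted. The median of 0.26 rested on pair 1 (0.98, -0.11 and 0.002) and was -0.17 without GFP-TC 1. Arg1, the arginine-degrading enzyme of alternatively activated macrophages, was at 12.7, 88.01 and 21.3 TPM with GFP-TC and 125, 181 and 60.9 TPM with ThTC, and Ccl6, a chemokine gene induced by GM-CSF in myeloid cells, at 14.03, 23.9 and 17.6 TPM with GFP-TC and 22.5, 61.1 and 29.7 TPM with ThTC. Each was higher within every pair and overlapped between the groups, and Arg1 in the sECM only libraries, at 77.3, 178 and 198 TPM, was as high as with ThTC.

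Of the neutrophil list 11 genes were tested and 9 had higher means (median 0.31, 0.256 without GFP-TC 1), with Ly6g, Camp, Ltf and Ngp below the filter. S100a9 passed it only with the ThTC libraries counted, and Mmp8 only with both those and the sECM only libraries counted. S100a8 passed it only with the GFP-TC libraries counted, and Retnlg only with the sECM only libraries counted. Trem1, an activating receptor of neutrophils and monocytes, was at 0.80, 1.77 and 1.93 TPM with GFP-TC and 2.15, 6.29 and 3.59 TPM with ThTC, low but without overlap. It was the only one of the 11 to lie above GFP-TC without overlap, as 2.2% of all genes did. B and plasma cells had 4 of 6 tested members higher (median 0.23, -0.028 without GFP-TC 1), with Ms4a1 below the filter. Dendritic cell genes had 12 of 19 higher (median 0.23, -0.20 without GFP-TC 1), and the 2 without overlap were lower, a share below the 16.9% of all genes: Tcf4, a factor of plasmacytoid dendritic cells that many other cells express, at 142, 193 and 153 TPM with GFP-TC and 116, 120.3 and 130.3 TPM with ThTC, and Fscn1, an actin-bundling protein gene of mature dendritic cells and of glioma cells, at 614, 652 and 603 TPM with GFP-TC and 557, 473 and 528 TPM with ThTC. Mast cells, basophils and eosinophils had all 8 tested members higher, with a median of 0.64 (0.14 without GFP-TC 1) and none without overlap. The pair medians were 1.74, -0.29 and 0.54, and 1 of the 8 was higher in 3 of 3 pairs. Fcer1a passed the filter only with the ThTC libraries counted, and Mcpt8 only with both those and the sECM only libraries counted.

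Chemokine ligands and receptors had 22 of 31 tested members with higher means, 3 without overlap (Ccl8, Ccl9 and the receptor gene Ccr1, against 2.2% of all genes), and a median of 0.25 (-0.017 without GFP-TC 1). Cxcl1 passed the filter only with both the ThTC and the sECM only libraries counted. Cxcl2 passed it only with both the GFP-TC and the sECM only libraries counted, and Ccl19 and Ccl24 only with the sECM only libraries counted. Ccl9, a chemokine gene of myeloid cells, was at 7.43, 7.08 and 7.37 TPM with GFP-TC and 8.66, 15.2 and 11.6 TPM with ThTC. Inflammatory cytokines and inflammasome genes were nearer to balance, with 14 of 22 higher and a median of 0.088 (-0.15 without GFP-TC 1). Il10 passed the filter only with the ThTC libraries counted. Pycard, the inflammasome adaptor, was at 7.10, 10 and 14.9 TPM with GFP-TC and 14.4, 20.8 and 25.1 TPM with ThTC, and Il15, a growth factor of NK and CD8 T cells, at 11.1, 12.1 and 12.8 TPM with GFP-TC and 16.2, 19.1 and 18.8 TPM with ThTC. Only Il15 was without overlap. In iron and haem handling, 10 of 14 were higher (median 0.154, 0.131 without GFP-TC 1). Without overlap, 1 was higher (2.2% of all genes) and 2 were lower, a share below the 16.9% of all genes. Tfrc, the transferrin receptor that dividing cells use to take up iron, was lower, at 40.3, 37.3 and 35.8 TPM with GFP-TC and 32.4, 24.5 and 24.9 TPM with ThTC, and Blvra, a biliverdin reductase gene, was higher, at 23.3, 22.9 and 23.7 TPM with GFP-TC and 25.02, 31.8 and 31.4 TPM with ThTC, both without overlap.

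Stromal genes lay on the other side. Of 32 tested genes of matrix and activated fibroblasts, 23 had lower means (66.2% of all genes did) and 11 were below GFP-TC without overlap (16.9% of all genes), with none above. The median was -0.27, even over the pairs at -0.22, -0.39 and -0.38, -0.34 without GFP-TC 1, -0.13 without GFP-TC 2 and -0.14 after median-of-ratios scaling. The summed TPM was 4563, 5429 and 4355 TPM with GFP-TC and 3778, 4182 and 3393 TPM with ThTC, without overlap. Postn, Sfrp4 and Pdgfrb, given above, led the list. The 4 fibroblast markers Col1a1, Col1a2, Lum and Dcn did not move that way: they were at 76.4, 84.2 and 74.9 TPM with GFP-TC and 57.3, 182 and 57.5 TPM with ThTC, with ThTC 2 the highest. Pericyte and smooth muscle genes were split, with 10 of 18 higher and 5 lower without overlap (16.9% of all genes). The median of 0.10 was -0.09 without GFP-TC 1 and took either sign as single libraries were left out. Heyl passed the filter only with the ThTC libraries counted, and Cnn1 only with both groups counted.

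Notch pathway genes had lower means in 15 of 19 (66.2% of all genes), with 5 below GFP-TC without overlap (Notch3, Jag1, Dll4, Rbpj and Maml1, against 16.9% of all genes) and a median of -0.26 (-0.15 after scaling, -0.32 without GFP-TC 1). Heyl passed the filter only with the ThTC libraries counted. The ligand gene Jag1 was at 68.2, 72.05 and 59.7 TPM with GFP-TC and 48.5, 44.2 and 37.9 TPM with ThTC, and with the receptor gene Notch3 it carried the 2 smallest p of the list. Wnt pathway genes were lower in 19 of 21 (median -0.22, -0.083 after scaling, -0.268 without GFP-TC 1, -0.14 without GFP-TC 2). Frzb and Wnt7a passed the filter only with both groups counted. Wnt4 passed it only with the GFP-TC libraries counted, so its place in the count supports nothing. The 3 of 21 without overlap, a share below the 16.9% of all genes, were Sfrp4, the co-receptor gene Lrp6 and the secreted ligand gene Wnt5a, the last at 27.2, 28.5 and 25.6 TPM with GFP-TC and 21.1, 22.6 and 20.3 TPM with ThTC. In the TGF-beta pathway 16 of 22 were lower, near the 66.2% of all genes, and 6 had no overlap, against 16.9%. The TGF-beta median was -0.17, -0.058 without GFP-TC 2 and -0.047 after scaling. Without GFP-TC 1 it was -0.218, near the -0.21 of all genes in that setting. Ltbp2 passed the filter only with the GFP-TC libraries counted, so its place in these counts supports nothing. Bmp1, a procollagen protease gene, was at 84.4, 119 and 87.1 TPM with GFP-TC and 73.6, 74.2 and 67.6 TPM with ThTC, one of those without overlap. The summed TPM of the Notch list (558, 642 and 588 TPM with GFP-TC and 472, 460.1 and 496 TPM with ThTC) and of the Wnt list (929.7, 1069.8 and 927 TPM with GFP-TC and 809, 803 and 864 TPM with ThTC) did not overlap. Endothelial genes showed no side, with 12 of 20 higher and a median of 0.097 (-0.054 without GFP-TC 1 and -0.13 without ThTC 3).

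Genes of the tumour cells were lower in means too. Glioma drivers and growth factor receptors had 25 of 29 lower and 7 below GFP-TC without overlap (66.2% and 16.9% of all genes). Their median was -0.23 (-0.11 after scaling, -0.346 without GFP-TC 1). Pik3ca, the catalytic subunit of PI3 kinase, was at 46.9, 53.4 and 41.9 TPM with GFP-TC and 39.99, 33.9 and 34.4 TPM with ThTC. Of the glioma stem and mesenchymal genes 16 of 20 were lower and 5 without overlap, against 66.2% and 16.9% of all genes. Their median was -0.26, -0.13 after scaling, -0.42 without GFP-TC 1 and -0.16 without GFP-TC 2. Nes, the intermediate filament gene of neural progenitors, was at 54.6, 62.9 and 50.5 TPM with GFP-TC and 41.8, 38.2 and 35.1 TPM with ThTC, and Sox4, a developmental transcription factor gene, at 197, 209 and 134 TPM with GFP-TC and 126, 101 and 112 TPM with ThTC. In both, every ThTC library was below every GFP-TC library, and sECM only values were 45.1, 56.4 and 57.5 TPM for Nes and 144, 174 and 201 TPM for Sox4. Cell cycle genes had lower means in 27 of 30 (66.2% of all genes), but the 4 of 30 without overlap were a share below the 16.9% of all genes. The median of -0.17 was -0.032 after scaling. Without GFP-TC 1 it was -0.134, above the -0.21 of all genes in that setting. E2f1, a driver of S phase entry, was at 103, 117 and 97.2 TPM with GFP-TC and 96.4, 78.7 and 78.2 TPM with ThTC, and Cenpe, a mitotic motor gene, at 30.6, 38.1 and 34.1 TPM with GFP-TC and 29.5, 24.7 and 22.6 TPM with ThTC. Mki67, the usual proliferation marker, was at 47.7, 57.8 and 50.5 TPM with GFP-TC and 48.9, 38.4 and 35.4 TPM with ThTC; it was higher with ThTC in pair 1 and lower in the others, and overlapped.

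Chromatin regulators had the lowest median of all lists, -0.37, and all 32 had lower means. Of them 21 lay below GFP-TC without overlap (16.9% of all genes), 20 had an unadjusted p under 0.05 (12.9%) and 27 were lower in 3 of 3 pairs (32.6%). The median was -0.082, -0.69 and -0.42 in the 3 pairs, was -0.49 without GFP-TC 1, and stayed at -0.25 after median-of-ratios scaling, with 2 of 32 then higher. Setd5, a SET domain protein gene, was at 58.4, 72.3 and 60.4 TPM with GFP-TC and 47.7, 43.4 and 47.9 TPM with ThTC, and the ThTC values lay below those of GFP-TC. The summed TPM was 1239.8, 1654 and 1504 TPM with GFP-TC and 1161, 1002 and 1143 TPM with ThTC; the ThTC libraries lay close together, and GFP-TC 1 was nearer to them than the other GFP-TC libraries were.

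These are long genes, and gene length moved with the fold changes as a whole. The median exonic length (GENCODE M21) was 4454 bases over all tested genes with a length, 5791 bases for those lower at an unadjusted p under 0.05 and 1912 bases for those higher. It was 12334 bases for the chromatin list, 7158 for glioma drivers and 6073 for matrix genes, against 1412 for cytotoxic genes, 1846 for MHC class II and 1908 for oxidative phosphorylation. In 4 equal groups of genes from the shortest to the longest the median log2 fold change was 0.042, -0.083, -0.14 and -0.20 as deposited. After median-of-ratios scaling it was 0.165, 0.044, -0.015 and -0.074. That scaling applies a single factor to each library and shifts nearly all genes alike, so it is no check on the order. Type I interferon-stimulated genes were of middling length (3561 bases) and T cell genes too (3534 bases). The part of length in the list values was not tested.

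**Figure D5:**
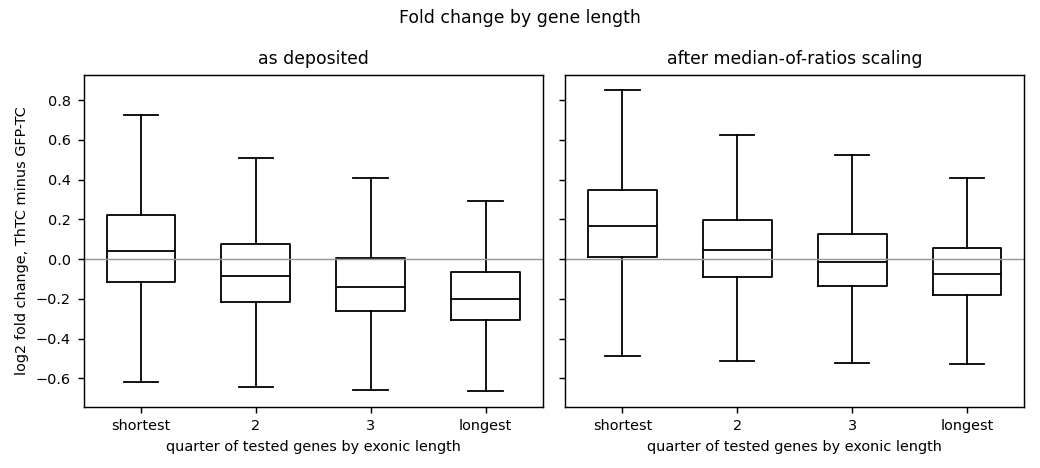
Log2 fold changes (ThTC minus GFP-TC) of tested genes in 4 equal groups by exonic length, as deposited (left) and after median-of-ratios scaling (right); boxes span the lower to the upper quartile, the line is the median, whiskers follow the usual Tukey rule, and points beyond are not drawn. The medians step down from the shortest to the longest genes in both panels, from 0.042 to -0.20 on the left and from 0.165 to -0.074 on the right. The scaling shifts nearly all genes alike, so the right panel is no check on the left.

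Short genes of energy metabolism and translation lay opposite to the chromatin list. Nuclear-encoded oxidative phosphorylation genes had higher means in 36 of 37, with 7 above GFP-TC without overlap and 9 at an unadjusted p under 0.05 (33.8%, 2.2% and 2.03% of all genes). Their median was 0.22, with 0.003, 0.32 and 0.27 in the pairs and 0.31 without GFP-TC 1, above the value with all libraries. Ndufa1 and Ndufa2, accessory subunits of complex I, were at 72.4, 65.5 and 77.7 TPM with GFP-TC and 86.4, 89.9 and 93.5 TPM with ThTC, and at 86.4, 86.1 and 82.8 TPM with GFP-TC and 104, 108 and 109 TPM with ThTC. Both sets of ThTC values were tight and above all GFP-TC values. Ribosomal protein genes had 32 of 36 higher means, none without overlap, and a median of 0.12 that ran from 0.026 without ThTC 1 to 0.279 without GFP-TC 1.

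Lysosomal genes had 25 of 30 higher means and 2 without overlap (33.8% and 2.2% of all genes), with a median of 0.21 (0.037 without GFP-TC 1). The 2 were Ctsh, a cathepsin gene rich in macrophages and microglia, at 78.2, 93.2 and 136 TPM with GFP-TC and 142, 212 and 199.7 TPM with ThTC, and Npc2, which encodes the cholesterol carrier of the lysosome lumen, at 219, 243 and 252 TPM with GFP-TC and 290.2, 320.5 and 285 TPM with ThTC. Hypoxia and glycolysis genes had 13 of 24 higher means (33.8% of all genes) and a median of 0.018, or 0.043 without GFP-TC 1. After scaling the median was 0.15 with 18 of 24 higher (53.7% of all genes). The 2 without overlap were lower, a share below the 16.9% of all genes, among them Hif1a, the oxygen-regulated transcription factor, at 114, 129 and 114 TPM with GFP-TC and 104, 104 and 95.6 TPM with ThTC. Apoptosis genes and p53 targets had 10 higher and 14 lower means and a median of -0.022, or -0.06 without GFP-TC 1. After scaling the median turned to 0.098 with 17 of 24 higher. The 3 of 24 at an unadjusted p under 0.05 were lower, about the 12.9% of all genes, among them Mdm2, the ubiquitin ligase of p53, at 57.4, 67.99 and 53.9 TPM with GFP-TC and 52.3, 48.2 and 42.3 TPM with ThTC, and Gadd45a, a stress-induced gene, at 68.2, 88.8 and 46.1 TPM with GFP-TC and 46.5, 38.4 and 51.6 TPM with ThTC.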

How the data were processed

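Per the labels' protocols, column-purified total RNA was made into libraries and read on the DNBseq platform. The deposited files hold 1 TPM value per gene and library, per the file headers, and the authors' pipeline divided by gene length and library total, so a rise of some genes lowers the rest. HISAT and the builds GRCm38.p6 and mm10 are named in the submitters' processing notes. The quantifier, annotation, strand setting and filters are not given in the sources used here. Every file held the same symbols, 239 entries were at 0 in all libraries, and no more than 0.419% of tested genes had equal values in any 2 libraries.

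Values were analysed as log2(TPM + 1), which understates changes of low genes. limma 3.58.1 in R 4.3.3, with an intensity trend and all 9 libraries in one fit, gave moderated tests with Benjamini-Hochberg adjustment over all 13829 genes. Ifnb1 and Csf2, below the filter, were compared by exact permutation. The steps were tested on simulated data. Positions come from RefSeq for GRCm38.p6, counted from 1, and exonic lengths from GENCODE M21, found for 98.8% of tested genes. Promoter windows come from a RefSeq table of the same build. Figures were drawn with matplotlib 3.10.9.

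Same-numbered libraries were treated as pairs because their deviations from the group means correlated at 0.743, 0.124 and 0.874 for numbers 1, 2 and 3. What a number stands for is not in the labels, and GFP-TC 1 with ThTC 2 reached 0.382, so the pairing is an assumption.

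The genes, the 36 lists, the tests and the first alternatives were chosen with earlier results of these data known. Genes are named if called, with or without the block. Also named are, per direction, the 10 with the smallest p and up to 12 with the largest change of at least 2-fold and an unadjusted p under 0.05, both among genes with an established symbol, a mean of 5 TPM or more and no overlap. The rule adds the 2 members of each list with the smallest p per direction, and 15 fixed genes; some genes that it names are not reported here. Cfp, Ccr1, Dll4, Rbpj, Maml1, Lrp6 and the genes of the closing observations were named after their values were seen. So were the genes below the filter and those that passed it only with certain groups counted. Alternatives covered scaling, pseudocount, filter, weights, a brain tissue covariate, the block and each library left out.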

Additional observations from a re-analysis of the deposited data

How the results depend on the processing

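The count of called genes was 0 in limma and stayed 0 with other pseudocounts, filters and scalings, with the brain tissue covariate, in the 6 libraries without a block and with any 1 library left out; it was 8 with the replicate block, 0 with the block after scaling, 0 to 1681 with the block and 1 pair left out (286 without pair 3), and 5866 with sample quality weights. The cause of these differences was not tested. Genes with an unadjusted p under 0.05 and a higher mean, 281 in limma with all 9 libraries, were 176 in the 6 libraries, 803 with the replicate block, 1555 with the block and median-of-ratios scaling, 654 to 889 with the block and 1 pair left out (867 without pair 2), 767 with the brain tissue covariate, 794 after median-of-ratios scaling, 663 after quantile scaling, 1231 with quality weights, 492 without both libraries numbered 1, and 103 to 541 with 1 library left out. Those with a lower mean, 1784, were 696 with the replicate block and median-of-ratios scaling, 395 to 2866 with the block and 1 pair left out (705 without pair 3), 542 after median-of-ratios scaling, 721 after quantile scaling, 5932 with quality weights, and 595 to 2607 with 1 library left out. Some log2 fold changes changed sign. That of Cxcl10 was -0.107 with quality weights and -0.179 to 0.329 with 1 library left out. Ifnar1 was at 0.03 after median-of-ratios scaling, with or without the block, and Ifnar2 at -0.016 to 0.157 with 1 library left out. Csf2ra was at -0.028 without both libraries numbered 1, and -0.177 to 0.605 with 1 left out. Csf2rb was at -0.006 and -0.152 to 0.797 in the same settings. Rsad2 was at 0.045 after median-of-ratios scaling, with or without the block, 0.026 after quantile scaling and -0.259 to 0.061 with a library or pair left out. Ifit2 was at 0.082, 0.03 and -0.255 to 0.102 in those settings. For Ifnb1 and Csf2 the paired differences equal the unpaired ones, at -0.0633 and 0.1533 TPM with the replicate block. The 3 libraries per group limit what can be called, and TPM keeps no read depth.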

Other observations

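The granule protease genes that lie together with Gzmf, and the pore-forming gene Prf1, were examined after their values had been seen. Gzmb was at 15.9, 135 and 62.7 TPM with GFP-TC and 83.7, 255 and 126 TPM with ThTC, Gzmc at 38.04, 118 and 41.4 TPM with GFP-TC and 54.4, 202 and 70.6 TPM with ThTC and Gzmd at 21.4, 38.2 and 31.2 TPM with GFP-TC and 31.4, 210.3 and 72.3 TPM with ThTC. Gzme was at 7.21, 14.4 and 12.3 TPM with GFP-TC and 11.5, 75.4 and 28.7 TPM with ThTC and Gzmg at 17.6, 34.9 and 36.4 TPM with GFP-TC and 25.7, 195 and 76.9 TPM with ThTC. Prf1, which encodes perforin, was at 6.70, 25.6 and 19.1 TPM with GFP-TC and 21.8, 57.6 and 29.3 TPM with ThTC. In each of these 6 genes ThTC 2 was the highest library and the groups overlapped. GFP-TC 2 was the highest of the control libraries for Gzmb, Gzmc, Gzmd, Gzme and Prf1, and GFP-TC 3 for Gzmg.

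Further interferon-stimulated genes with an unadjusted p under 0.05 were also taken after their values were known. Ly6a, a surface protein gene of stem cells and activated lymphocytes, was at 70.7, 191 and 264 TPM with GFP-TC and 250.4, 454 and 413 TPM with ThTC. Xaf1 was at 43.8, 71.5 and 73.5 TPM with GFP-TC and 79.04, 91.9 and 93.96 TPM with ThTC, Slfn2 at 26.7, 44.8 and 65.3 TPM with GFP-TC and 61.3, 68.99 and 92.8 TPM with ThTC and Phf11d at 7.82, 10.8 and 15.4 TPM with GFP-TC and 15.2, 16.9 and 21.4 TPM with ThTC. Only Xaf1 among these 4 had no overlap, and limma called none of them.

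In the promoter windows of the 41 genes the GAS core TTCNNNGAA was found in 5 genes, the ETS and PU.1 core GAGGAAGT in 2 and the RBPJ core TGGGAA in 9, on either strand. Over all RefSeq windows the shares were 7.02%, 2.44% and 21.6%.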
